A study of Drosophila melanogaster with 25 samples.

Results

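Nos dopaminergic neurons were described in single cells of the fly brain that were sorted for dopaminergic neurons (DANs) and clock neurons and profiled by 10X Chromium. A cell was taken as a DAN if it held at least 5 UMIs of ple and 5 UMIs of DAT, and as a Nos DAN if it also held at least 2 UMIs of Nos. The members were thus chosen by their Nos, ple and DAT counts. A UMI tags 1 captured mRNA molecule and is counted once however often it was amplified. These limits gave 342 Nos DANs among 2041 DANs and 5184 cells in all, with 171 of them in each of the 2 libraries. The other 1699 DANs, 1001 at ZT02 and 698 at ZT14, were the comparison. In CEL-seq2, a second method on another fly line, 58 of 687 DANs and of 1516 cells met the same limits and served as a check.

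Both sets came from adult brains of flies kept in cycles of 12 hours of light and 12 hours of dark, in which GAL4 drivers labelled neurons with EGFP. The 10X flies carried TH-GAL4 and Clk856-GAL4 together, so that DANs and clock neurons were sorted side by side, with 1 library at ZT02 (2 hours after lights on) and 1 at ZT14. The CEL-seq2 flies carried TH-GAL4 alone, in 23 libraries over 6 time points, 4 at each but ZT10, which had 3. TH-GAL4 reaches only a part of the DANs and few of the PAM cluster, a group of DANs that innervates the mushroom body, so the Nos DANs below are those within its reach. The labels do not say that libraries came from separate batches of flies. In the CEL-seq2 labels ZT02 shares a date with ZT14, ZT10 with ZT18, and ZT06 with ZT22. An effect of date was not tested. In 10X, p-values weigh a difference between groups of cells against how it varied between the 2 libraries, which also differ in time of day. In CEL-seq2, they weigh it against how it varied between the 6 time points, each summed over its libraries. This spread may be technical.

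Nos (FBgn0011676, 2L:10804274-10837511, minus strand, dm6) encodes the nitric oxide synthase of the fly, which makes the gas nitric oxide (NO) from arginine. NO leaves the cell without a vesicle and binds soluble guanylyl cyclase, which then makes the second messenger cGMP. Some DANs that innervate the mushroom body release NO beside dopamine, and there the gas shapes how long odor memories last. ple (3L:6713356-6719525) encodes tyrosine hydroxylase, the rate-limiting enzyme of dopamine synthesis, and DAT (2R:16558567-16565238) the transporter that takes dopamine back up. The other genes proposed as markers of these cells were SerT (2R:24404595-24411074), the plasma membrane serotonin transporter, dve (2R:22243963-22286469), a homeodomain transcription factor, and Dh31 (2L:8491868-8506845), a neuropeptide of the calcitonin family.

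The Nos DANs had a median of 7489 UMIs per cell (6960 at ZT02, 8067 at ZT14) and the other DANs 8290 (7290 and 9845). The libraries held 19834146 and 21264133 UMIs, and no cell barcode was shared between them. CEL-seq2 libraries held 548486 to 1197517 UMIs, and their Nos DANs and other DANs had medians of 12487 and 12080. Levels are in TP10K: the cells of a group were summed, and a gene's UMIs are given per 10000 of the sum. Intervals are exact at 95% and cover counting error only.

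Nos DANs made up 14.6% (12.6 to 16.7) of the DANs at ZT02 and 19.7% (17.1 to 22.5) at ZT14. In CEL-seq2 the share was 8.44% (6.47 to 10.8), and per library it ran from 2.70% over a median of 7.69% to 17.6%. The UMI minimum ties this share to depth. With every DAN of at least 3000 UMIs thinned to that number, 8.78% of the 10X DANs and 2.23% of the CEL-seq2 DANs passed, so the CEL-seq2 share was below the 10X share with and without thinning. Nos itself chose the cells and is described without a test. The Nos DANs held a median of 4 Nos UMIs (highest 42) at 7.58 TP10K at ZT02 and 8.21 at ZT14. Of the other DANs, 1540 held no Nos UMI and 159 held 1. Just inside the limit, 84 DANs held 2 Nos UMIs, 61 held 3 and 39 held 4. The 84 cells with 2 UMIs had a SerT level of 3.24 TP10K and a dve level of 5.07, and the 159 cells with 1 UMI had 1.21 and 3.37, at similar depth (medians of 5785 and 5859 UMIs). vvl, another transcription factor that marks many Nos DANs below, was at 0 UMIs in the cells with 2 Nos UMIs.

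In the Nos DANs the ple level was 50.4 TP10K (ZT02) and 39.0 (ZT14), and that of the other DANs 61.7 and 62.4. For comparison, 655 clock neurons of the same libraries (at least 2 tim UMIs and at most 1 ple UMI, median of 9741 UMIs) had 0.130 TP10K of ple and 0.0909 of DAT. Nos is no gene of DANs alone: these clock neurons held it at 1.50 TP10K, with a UMI in 27.9% of cells. Of 699 10X cells with at least 2 Nos UMIs, 357 lay outside the ple and DAT limits.

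The proposed markers held for a minority of the cells. A SerT UMI was found in 47 Nos DANs (13.7%), a dve UMI in 111 (32.5%) and a Dh31 UMI in 125 (36.5%). All 3 were found in 28 cells (8.19%) and none of them in 160 (46.8%). In CEL-seq2, 16, 21 and 31 of 58 cells held SerT, dve and Dh31, 7 held all 3 and 17 held none. SerT, dve and Dh31 therefore do not mark the Nos DANs as a whole, and the cells are named here by their rule. SerT was at 0.0167 TP10K in the clock neurons, with a UMI in 0.916% of them.

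The Nos DANs fell into several kinds. Cells with at least 2 dve UMIs and more dve than vvl numbered 90, and 43 of these held at least 2 SerT UMIs, 44 none and 3 a single one. Cells with at least 2 vvl UMIs and more vvl than dve numbered 48. vvl (ventral veins lacking) is a POU-domain transcription factor. Among the rest, 56 cells had fewer than 2 UMIs of Vmat, the vesicular monoamine transporter that loads dopamine into vesicles. Another 112 had at least 5 UMIs of Pvf3, a ligand of the PDGF and VEGF receptor family, and 36 were in none of these kinds. The low Vmat and Pvf3 kinds were chosen after their values were seen, so they are described with no test.

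**Figure D1:**
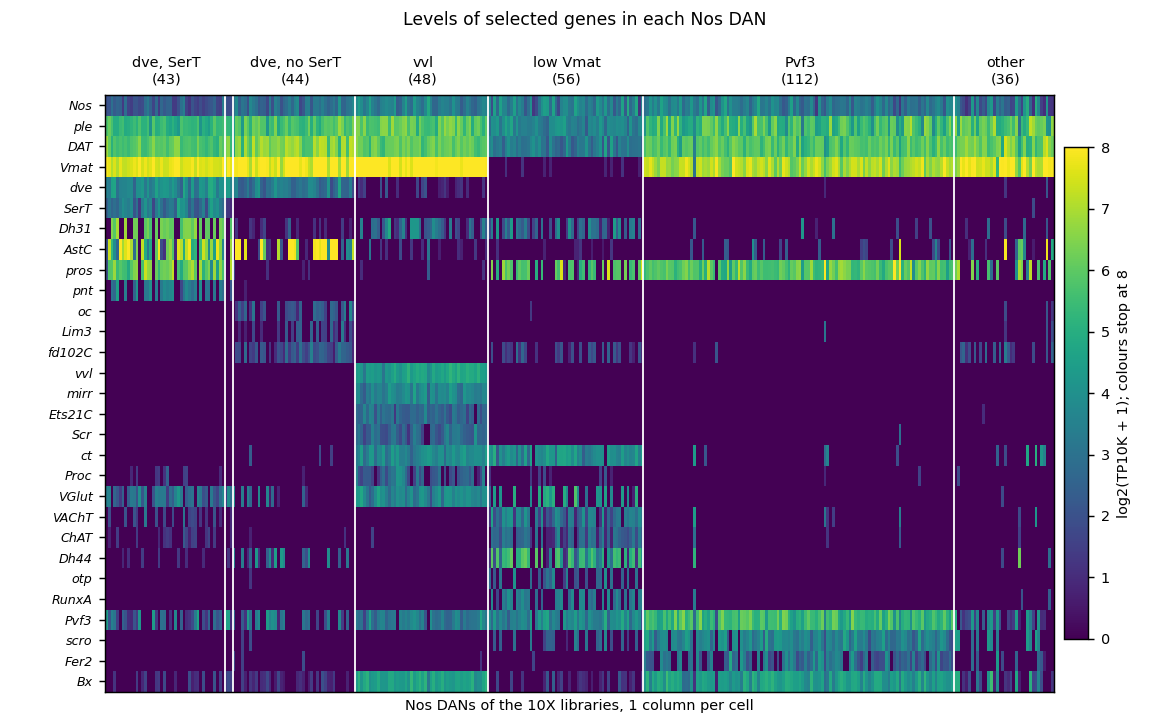
Levels of 29 genes (rows) in each of the 342 10X Nos DANs (columns), as log2(TP10K + 1), with colours that stop at 8; white lines part the kinds of cell, the narrow unnamed column holds the 3 dve cells with 1 SerT UMI, and numbers in brackets are cells. vvl, mirr and Scr fill the 48 vvl cells, Vmat is nearly empty in the 56 low Vmat cells, and Pvf3 and scro are highest in the 112 Pvf3 cells. vvl, Vmat and Pvf3 themselves chose these kinds.

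Nos levels were 2.76 to 11.7 TP10K among the named kinds. The dve SerT cells held 2 to 5 Nos UMIs at 3.58 TP10K at ZT02 and 2.76 at ZT14, the lowest of the named kinds in both libraries. The dve cells without SerT had 7.17 and 7.29, the vvl cells 11.5 and 8.70. The low Vmat cells had 10.7 and 11.7 with up to 42 Nos UMIs in a cell, and the Pvf3 cells, the shallowest with a median of 3731.5 UMIs, had 10.3 and 7.30. The minimum of 2 Nos UMIs sets a higher floor in shallow cells, so these levels are a description.

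The kinds also differed in how many of their DANs passed the Nos minimum. Of 48 10X DANs with vvl in which a UMI of Ets21C, an ETS-domain factor, was found, 47 were Nos DANs (97.9%, 88.9 to 99.9), and in CEL-seq2 8 of 14. Of 89 vvl DANs in all, 48 were Nos DANs (53.9%), but in CEL-seq2 14 of 110 (12.7%, 7.14 to 20.4). With all DANs sorted into the same kinds, in the same order, 43 of 95 dve SerT DANs passed (45.3%) and 44 of 267 dve DANs without SerT (16.5%). Among DANs that were neither dve nor vvl, 56 of 82 with fewer than 2 Vmat UMIs passed (68.3%), as did 112 of the 436 that remained and held at least 5 Pvf3 UMIs (25.7%). In CEL-seq2, 7 of 31 dve SerT DANs (22.6%), 2 of 61 dve DANs without SerT (3.28%) and 14 of 74 Pvf3 DANs (18.9%) passed. These shares follow from the rule and are a description. CEL-seq2 held 7 dve SerT, 14 vvl, 14 Pvf3 and 1 low Vmat Nos DANs of 58.

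The makeup differed between the 10X libraries. The dve cells without SerT were 19.9% (14.2 to 26.7) of the Nos DANs at ZT02 and 5.85% (2.84 to 10.5) at ZT14. The intervals of the other named kinds overlapped between the libraries: low Vmat cells were 11.7% (7.29 to 17.5) and 21.1% (15.2 to 27.9), Pvf3 cells 28.1% (21.5 to 35.4) and 37.4% (30.2 to 45.1), dve SerT cells 14.04% and 11.1%, and vvl cells 12.9% and 15.2%. With 1 library at each time, a difference of time and a difference between these libraries cannot be told apart.

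**Figure D2:**
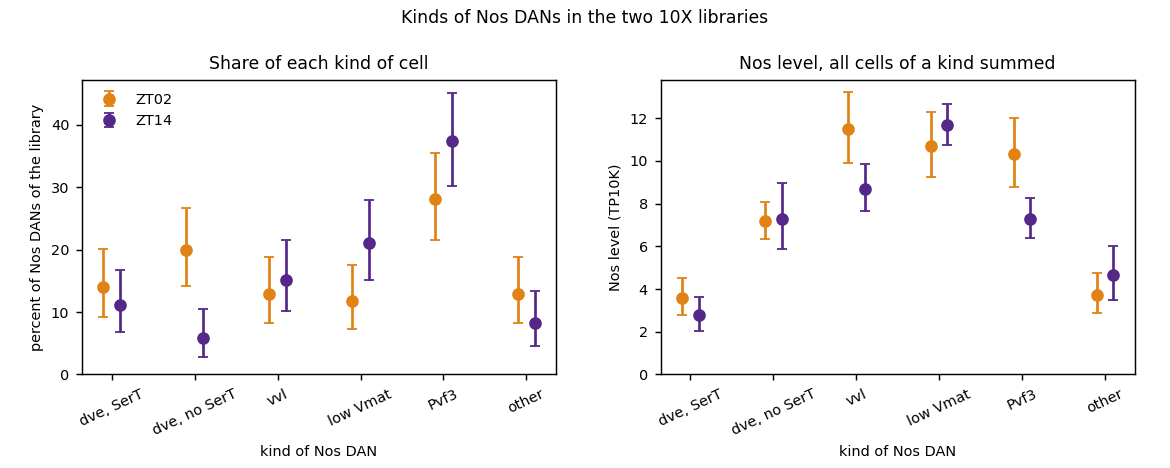
Left, the percent of the 171 Nos DANs of each 10X library that belong to a kind (points) with exact 95% intervals (bars); right, the Nos level in TP10K of all cells of a kind summed, with exact Poisson 95% intervals. The dve cells without SerT fall from 19.9% at ZT02 to 5.85% at ZT14, and the dve SerT cells have the lowest Nos level of the named kinds (3.58 and 2.76).

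The dve SerT cells expressed Dh31 at 34.7 TP10K at ZT02 and 49.0 at ZT14 and AstC (allatostatin C, a neuropeptide) at 99.6 and 85.6. These peptides were not in every cell: 27 of the 43 cells held at least 5 Dh31 UMIs and the other 16 held none, while 32 held at least 5 AstC UMIs, and 21 held both at that level. Trh, the neuronal tryptophan hydroxylase that serotonin synthesis needs, had a UMI in 5 of the 43 cells (11.6%), and each of these had 5 or more, at 1.02 and 0.676 TP10K over all cells. So SerT was found without Trh in 38 of the 43 cells. VGlut, the vesicular glutamate transporter, had a UMI in 83.7% of the dve SerT cells at 6.44 and 6.14 TP10K.

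The vvl cells shared most of their named genes. mirr, an Iroquois homeodomain factor, and ct (cut), a homeodomain factor, were found in all 48 cells, Ets21C in 47 and the Hox gene Scr in 46. VGlut was also found in all 48, at 13.6 TP10K at ZT02 and 13.97 at ZT14. Of the 48 cells, 39 had a UMI of Proc, the neuropeptide proctolin, at 6.05 and 3.53 TP10K over all vvl cells. In the 14 CEL-seq2 vvl cells, mirr had a UMI in 57.1%, Ets21C in 57.1%, Scr in 42.9% and VGlut in 92.9%, and in the 7 dve SerT cells of CEL-seq2 mirr and Scr were at 0 UMIs.

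The low Vmat cells met the ple and DAT limits with much lower levels of both. ple was at 13.1 TP10K at ZT02 and 11.9 at ZT14 and DAT at 9.68 and 8.44, against at least 35.9 of ple and 52.4 of DAT in the other 4 named kinds. Their Vmat level, fixed low by the rule, was 0.115 TP10K. ChAT and VAChT, which make and load acetylcholine, had a UMI in 89.3% and 92.9% of these cells. The summed cholinergic level was 13.96 TP10K at ZT02 and 11.7 at ZT14. It was 0.233 and 0.351 in the 1699 DANs that were not Nos DANs, of which 98.5% held a Vmat UMI. In the 28 of these DANs with fewer than 2 Vmat UMIs it was 1.62 and 4.95, and ChAT and VAChT each had a UMI in 21.4% of cells. In CEL-seq2 VAChT was at 0 UMIs in all DANs, so it could not be checked there. VAChT lies within ChAT on the same strand (both start at 3R:18705501), so how reads are split between them is uncertain. The neuronal markers elav and nSyb were at 9.65 and 34.0 TP10K, the clock gene tim had 1 UMI and the glial gene repo none.

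Within the low Vmat kind there were at least 2 sets of cells. pros (prospero, a homeodomain factor) had at least 5 UMIs in 33 of the 56 cells and 0 UMIs in 21. RunxA, a Runt-domain factor, reached 5 UMIs in 32 cells, all of them among the pros cells, and Dh44 (diuretic hormone 44, a peptide of the CRF family) in all 33 pros cells. VGlut reached 5 UMIs in 21 cells and otp (orthopedia, a homeodomain factor) in 15, and none of these was a pros cell, while 14 of the 15 otp cells were among the VGlut cells. The pros set and the VGlut set thus shared no cell at 5 UMIs, and only 2 cells were in neither. ct had at least 5 UMIs in 51 of the 56 cells and Pvf3 in 52, so these were shared by both sets.

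The Pvf3 cells carried Fer2, a gene for a bHLH transcription factor known from the PAM cluster, at 4.37 TP10K at ZT02 and 6.16 at ZT14, with a UMI in 88 of 112 cells (78.6%). scro (scarecrow, an NK2 homeodomain factor) was at 10.5 in both libraries, Bx (Beadex, a LIM-only protein) at 18.2 and 18.9 and in every cell, and the serotonin receptor gene 5-HT2A at 4.56 and 5.55, in 81.3% of cells. VGlut was at 0 UMIs in all 112 cells. Outside the Pvf3 cells Fer2 had 6 UMIs in the dve cells without SerT, 3 in the low Vmat cells, 1 in the vvl cells and 0 in the dve SerT cells, and 8 of the 36 cells of no kind held it. In CEL-seq2 none of the 58 Nos DANs held a Fer2 UMI, and none of the 34 CEL-seq2 DANs with Fer2 was a Nos DAN (0 of 34, upper limit 10.3%). Their 14 Pvf3 cells had VGlut in 92.9%, scro in 28.6% and Vmat at 29.6 TP10K, so the cells that this limit picks in CEL-seq2 were not like the Pvf3 cells of 10X.

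The 90 dve and the 48 vvl cells were compared with each other in sums per library, by edgeR's quasi-likelihood test with the library as a block. A gene was called if its adjusted p was below 0.05 and one level was at least 25% above the other. Of 3715 genes tested, 385 were higher (10.4%) and 354 lower (9.53%) in the dve cells. dve and vvl chose the cells, so their own differences are not read as results. Counts over all genes tested, here and below, do not leave out genes that chose the cells. Of the 10 named genes with the largest change in each direction, most had UMIs in one kind and none in the other.

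On the vvl side, mirr had levels of 11.8 TP10K (ZT02) and 12.4 (ZT14) and had no UMI in the dve cells, which makes it at least 369-fold higher against 3 counts over the group. nub and pdm2, a pair of neighbouring POU-domain genes, were at least 167-fold and 119-fold higher, Ets21C at least 162-fold, Scr at least 168-fold, and the homeodomain genes Dr and Ptx1 at least 83.1-fold and 75.8-fold. ct was at 12.1 and 13.9 TP10K in the vvl cells and at 0.135 and 0.0942 in the dve cells (log2 fold change -6.67 ± 0.23 SE, adjusted p = 2.26e-28). In both libraries the vvl cells had the higher level of each of these genes. CG34347 and CG32700 were the other genes among the 10 with the largest change, at least 58.7-fold and by a log2 fold change of -6.09 ± 0.23.

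On the dve side, the genes with the largest change were at 0 UMIs in the vvl cells. These were NetB (netrin, a guidance cue, at least 71.1-fold), the T-box gene bi (at least 54.6-fold), the POU gene pdm3 (at least 45.3-fold), dac (at least 37.6-fold), the ETS gene pnt (at least 35.2-fold) and the LIM-homeodomain gene tup (at least 28.3-fold). CG7191 (at least 72.1-fold), CG32532 (at least 34.9-fold) and Dh44 (at least 43.0-fold) were also among them. SerT, a marker proposed from these libraries, was at least 55.1-fold higher. NetB overlaps the gene hog and pdm3 overlaps CG11635 and CG8701 on the same strand, so their counts could be split otherwise. AstC was at 104 and 109 TP10K in the dve cells and at 0.423 and 0.272 in the vvl cells (log2 fold change 8.35 ± 0.16, adjusted p = 6.08e-39), and the peptide gene Nplp1 at 5.69 and 6.65 against 0.302 and 0.272 (4.47 ± 0.26).

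Transmitter and receptor genes differed too. VGlut was lower in the dve cells, at 3.23 and 3.99 TP10K against 13.6 and 13.97 (log2 fold change -1.92 ± 0.13, adjusted p = 5.12e-17), and Proc was lower by a log2 fold change of -5.01 ± 0.30. The dopamine receptor gene Dop2R, an autoreceptor, was higher at 128 and 147 against 41.7 and 54.0 (1.54 ± 0.083), while DopEcR, a receptor for dopamine and ecdysteroids, was lower at 2.79 and 1.91 against 5.63 and 5.95 (-1.28 ± 0.17). Dop1R1 was at 1.51 and 1.44 against 2.12 and 1.67 and was not called (adjusted p = 0.399). 5-HT2A had no UMI in the vvl cells and was at least 19.9-fold higher in the dve cells. Ddc, the decarboxylase of dopamine and serotonin synthesis, was at 22.6 and 26.3 against 25.2 and 26.8 (adjusted p = 0.698).

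Each library gave only 1 sum per kind. By DESeq2, which called 205 genes in place of 739, mirr (adjusted p = 0.0675) was no longer called, nor were the other genes at 0 UMIs in one kind among the 10 with the largest change in each direction, Dr and CG34347 excepted.

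Within the dve cells, the 43 with SerT were compared with the 44 without in the same way. Of 2847 genes tested, 182 were higher (6.39%) and 179 lower (6.29%) in the SerT cells. pros had levels of 56.7 TP10K (ZT02) and 66.8 (ZT14) in the SerT cells and of 0.129 and 0 in the others (log2 fold change 9.20 ± 0.31, adjusted p = 1.69e-14). pnt was at 4.86 and 6.14 against 0.0257 and 0 (7.70 ± 0.50), and Dh31 at 34.7 and 49.0 against 0.386 and 0.164 (6.88 ± 0.27). Dh31 was proposed as a marker together with SerT from these libraries, so its difference is a description. None of the 44 cells without SerT held 5 Dh31 UMIs. Dop1R1, the receptor through which dopamine raises cAMP in memory formation, was at 3.94 and 2.31 against 0.283 and 0.164 (3.79 ± 0.36). Grd, a subunit of a ligand-gated chloride channel, was at 0 UMIs without SerT (at least 20.5-fold). The tight-junction gene pyd (4.19 ± 0.35), the transcription factor gene danr (4.09 ± 0.52), the leucine-rich repeat gene Fili (3.90 ± 0.49), the sialyltransferase gene SiaT (3.57 ± 0.33) and CG43689 (4.61 ± 0.36) were the other genes with the largest change upward.

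The dve cells without SerT were marked by genes at 0 UMIs in the SerT cells. These were CG7191 (at least 104-fold), the forkhead gene fd102C (at least 34.1-fold), oc (orthodenticle, a homeodomain factor, at least 31.2-fold), lov (at least 29.2-fold), PVRAP (at least 22.2-fold), Ppa (at least 21.2-fold), Pka-C3 (at least 19.2-fold) and CG2016 (at least 17.3-fold). CG31221 and CG9650 were lower in the SerT cells by log2 fold changes of -6.98 ± 0.56 and -6.65 ± 0.57. Of the dve cells without SerT, fd102C had a UMI in 86.4%, oc in 61.4%, Lim3 in 45.5% and CG7191 in 29.5%, so this kind was mixed. AstC had at least 5 UMIs in 23 of the 44 cells and 0 in 16, Dh44 at least 5 in 11, and 3 cells had both at that level. Over all cells AstC was not called between the kinds (99.6 and 85.6 against 108 and 149 TP10K, log2 fold change -0.44 ± 0.15, adjusted p = 0.0696), though after thinning to 3000 UMIs it was called (-0.51, adjusted p = 0.0270).

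Of 6 serotonin genes tested, 3 were called higher with SerT and 0 lower, against 6.39% and 6.29% of all genes. 5-HT7 was at 1.79 and 2.70 TP10K against 0.668 and 0.246 (log2 fold change 1.97 ± 0.37, adjusted p = 0.00056), 5-HT2A at 1.84 and 2.14 against 0.797 and 0 (1.87 ± 0.44) and 5-HT1B at 1.23 and 1.46 against 0.540 and 0.737 (1.12 ± 0.34). Trh was not called (adjusted p = 0.0657). Ddc was higher at 32.3 and 32.4 against 17.5 and 17.9 (0.89 ± 0.15, adjusted p = 0.000251). VGlut was at 6.44 and 6.14 against 1.65 and 0 (2.66 ± 0.40). Among cell-surface proteins of the dpr and DIP families, which pair across synaptic partners, 2 of 24 were higher and 11 lower (6.39% and 6.29% of all genes), with a median log2 fold change of -0.70 against -0.00 over all genes tested. By DESeq2, which called 109 genes in place of 361, CG7191 (adjusted p = 0.283), oc, lov, Pka-C3, Ppa, CG43689 and 5-HT7 were no longer called.

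The receptors and enzymes of the NO and cGMP pathway were examined in all Nos DANs and then between the kinds. Gycalpha99B and Gycbeta100B, which together form the NO-sensitive guanylyl cyclase, were at 2.68 and 2.48 TP10K and at 2.28 and 1.97 in the Nos DANs. In the other DANs they were at 3.17 and 3.19 and at 2.36 and 2.29. Neither was called (log2 fold changes of -0.31 ± 0.090 and -0.14 ± 0.090, adjusted p = 0.0998 and 0.458), and they had a UMI in 77.5% and 64.3% of the Nos DANs. Gycalpha99B was called lower with at least 3 Nos UMIs required (-0.42, adjusted p = 0.0366) and without the filter on low counts (-0.34, adjusted p = 0.0180). Of 13 genes of the pathway tested, 1 was called higher and 0 lower, with a median of -0.09 against -0.02 over all 6905 genes, of which 3.45% were called higher and 2.39% lower. The called gene was Pde6, a cGMP phosphodiesterase, at 4.23 and 5.49 against 3.16 and 4.05 (0.42 ± 0.083, adjusted p = 0.0249). It was highest in the Pvf3 cells, at 10.7 and 12.1.

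Between dve and vvl cells, 6 of 11 tested genes of the pathway were higher and 3 lower (10.4% and 9.53% of all genes), with a median of 0.67 against 0.00 over all genes tested. Gycalpha99B was at 2.84 and 2.86 TP10K in the dve cells and 1.57 and 1.80 in the vvl cells (log2 fold change 0.76 ± 0.21, adjusted p = 0.00494), and Gycbeta100B at 2.66 and 3.04 against 1.94 and 1.73 (0.67 ± 0.21). Gyc88E, Gyc89Da and Gyc89Db, guanylyl cyclases known chiefly as oxygen sensors, had no UMI in the 48 vvl cells and were at least 9.27-fold, 6.91-fold and 8.76-fold higher in the dve cells. In the 14 CEL-seq2 vvl cells Gyc88E had 2 UMIs. The phosphodiesterase gene Pde9 was lower in the dve cells at 4.20 and 3.86 against 7.80 and 7.21 (-0.88 ± 0.14), and Cngl, which resembles cyclic nucleotide-gated channels, at 7.59 and 10.7 against 15.97 and 20.8 (-0.99 ± 0.11). Within the dve cells, Gycbeta100B was lower with SerT, at 1.58 and 2.14 against 3.24 and 4.59 (-1.04 ± 0.25, adjusted p = 0.00605), and Gycalpha99B was at 2.81 and 2.99 against 2.78 and 2.95 (adjusted p = 0.961).

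**Figure D3:**
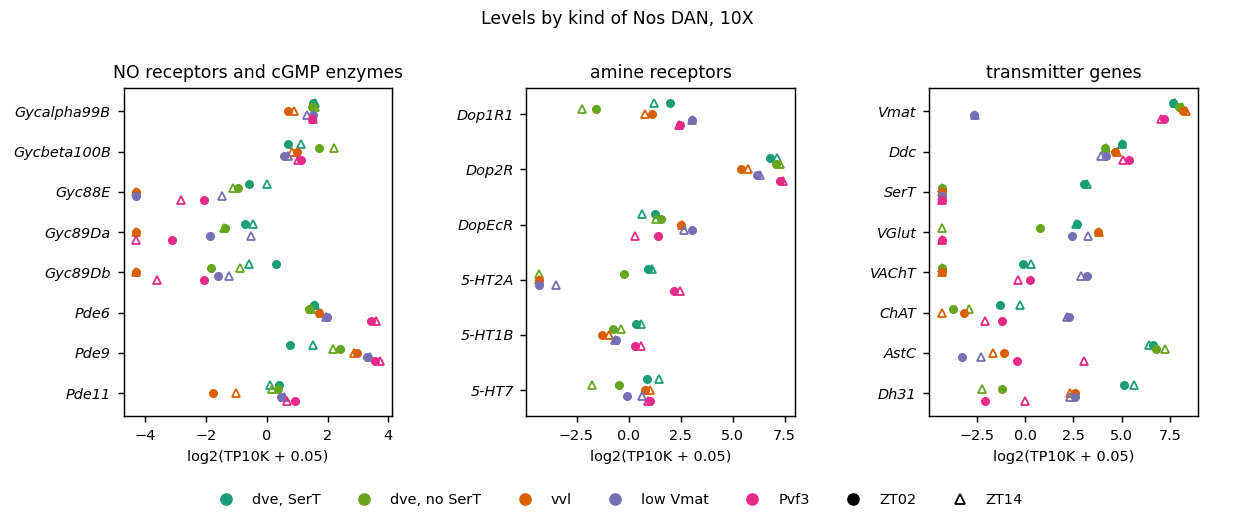
Levels of NO receptor and cGMP genes, amine receptor genes and transmitter genes in 5 kinds of 10X Nos DAN (colours), as log2(TP10K + 0.05), with circles for ZT02 and triangles for ZT14; points at the left edge hold 0 UMIs. Gyc88E is at 0 in the vvl cells, Pde6 is highest in the Pvf3 cells (10.7 and 12.1 TP10K) and Vmat is near 0 in the low Vmat cells.

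All 342 Nos DANs were also compared with the 1699 other DANs of the 10X libraries. Of 6905 genes tested, 403 were called (5.84%), 238 higher and 165 lower in Nos DANs. The Nos DANs had vvl levels of 2.53 TP10K (ZT02) and 4.84 (ZT14) and the other DANs 0.0981 and 0.163 (log2 fold change 4.80 ± 0.10). vvl splits the kinds and is on a list chosen with earlier results of these data known, so its difference is a description. VAChT was at 1.58 and 2.75 against 0.139 and 0.221 (3.57 ± 0.11), and Pvf3 at 10.4 and 14.8 against 3.70 and 3.39 (1.80 ± 0.14, adjusted p = 0.000334). Each library gave 1 sum per class, and these genes were higher in the Nos DANs in both libraries. Among the kinds VAChT was highest in the low Vmat cells. vvl and Pvf3 were highest in the vvl and Pvf3 cells, but these genes chose those kinds, so this is no separate result. Bx (1.85 ± 0.11), mirr (1.75 ± 0.12), scro (1.74 ± 0.12), Nplp1 (1.50 ± 0.16) and CG15082 (2.32 ± 0.096) were the others with the largest change upward.

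The marker genes SerT, Dh31 and dve were proposed from these libraries, so their 10X values are given without a test. SerT was at 1.29 and 1.07 TP10K in the Nos DANs and 0.224 and 0.289 in the other DANs, and Dh31 at 7.15 and 8.68 against 1.70 and 2.48. dve was at 4.90 and 2.48 against 2.13 and 2.17, so at ZT14 its level was close to that of the other DANs. The 84 cells with 2 Nos UMIs held 187 of the 332 SerT UMIs of the Nos DANs, and with at least 3 Nos UMIs required, the log2 fold change of SerT was 0.81 in place of 2.19.

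Downward, CCHa2, a neuropeptide gene, and Optix, a Six-family homeodomain gene, had no UMI in the 342 Nos DANs and were at least 224-fold and 124-fold lower than in the other DANs. In the other DANs CCHa2 was a gene of few cells, with a UMI in 1.71%. Ms (myosuppressin, a peptide that inhibits muscle) was at 0.134 and 2.11 TP10K against 17.9 and 17.8 (log2 fold change -4.34 ± 0.65, adjusted p = 0.00748), and the peptide gene Orcokinin at 0.118 and 0.210 against 9.29 and 6.41 (-5.51 ± 0.24). The transcription factor genes Ets65A (-3.71 ± 0.39), SoxN (-3.69 ± 0.15) and toy (-2.93 ± 0.28) were lower as well, as were AstCC (-2.69 ± 0.14), CG12239 (-5.42 ± 0.12) and CG2016 (-4.14 ± 0.15). By DESeq2, CCHa2 and Optix were not called (adjusted p = 0.184 and 0.305). With 1 Nos UMI enough to join the Nos DANs, neither CCHa2 (adjusted p = 0.443) nor Orcokinin (0.592) was called.

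**Figure D4:**
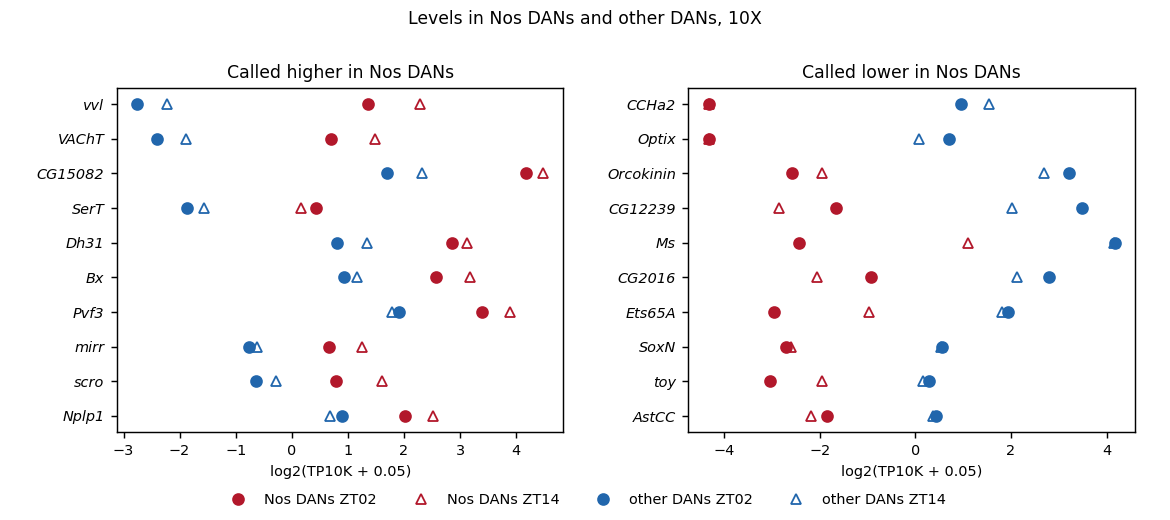
Levels of the 10 genes with the largest change in each direction among those called, as log2(TP10K + 0.05), in Nos DANs (red) and other DANs (blue) of the 10X libraries at ZT02 (circles) and ZT14 (triangles). In every row both red points lie on one side of both blue points, and CCHa2 and Optix are at 0 UMIs in the Nos DANs; SerT and Dh31 were proposed as markers from these libraries.

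The gene lists, written with earlier results of these data known, are read against the 3.45% of all genes called higher and 2.39% called lower. Surface and guidance proteins had 23 of 56 tested genes higher and 3 lower in Nos DANs (median log2 fold change 0.30 against -0.02 over all genes tested), among them beat-IV (0.88 ± 0.13) and the receptor genes robo3 and PlexA. Transcription factors went both ways, with 16 of 48 higher and 13 lower. Of 25 neuropeptide genes 5 were higher, with the proposed marker Dh31 among them, and 5 lower, and of 11 genes that process peptides 0 were higher and 5 lower (7B2, amon, CrebA, Pal2 and Phm), with a median of -0.42. Pal2, which helps to amidate peptides, was at 8.07 and 5.98 TP10K against 14.04 and 11.5 (-0.88 ± 0.077, adjusted p = 0.000614). Of 16 amine receptor genes, 5 were higher (5-HT2A, TyrR, Octalpha2R, Dop1R1 and 5-HT7) and 2 lower (Octbeta1R and Octbeta2R). Dop1R1 was at 3.08 and 4.79 against 2.17 and 2.05 (0.87 ± 0.16, adjusted p = 0.0185), and Octbeta1R, an octopamine receptor gene, at 0.639 and 0.687 against 2.17 and 1.87 (-1.60 ± 0.11). In CEL-seq2, where fewer genes were called, 1 of 44 surface and guidance genes was higher and 0 lower. Of 36 transcription factors 2 were higher and 6 lower, and of 14 amine receptor genes 1 was higher (Dop1R1) and 0 lower. Of 10 peptide processing genes 0 were higher and 4 lower. 5-HT2A was not called, at log2 fold changes of -1.07 to -0.49 in fits that left out 1 CEL-seq2 library.

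Of the genes of dopamine synthesis and transport other than ple and DAT, Vmat was lower at 196 and 151 TP10K against 222 and 220 (log2 fold change -0.37 ± 0.079, adjusted p = 0.0362, but 0.209 by DESeq2), and Ddc was at 26.5 and 23.9 against 21.0 and 21.0 (adjusted p = 0.0798). AANAT1, an acetyltransferase that inactivates amines, was higher at 0.410 and 0.572 against 0.167 and 0.180 (1.50 ± 0.17). Dhpr, which regenerates the cofactor BH4 that tyrosine hydroxylase and NO synthase both use, was lower at 2.62 and 1.76 against 4.65 and 3.61 (-0.94 ± 0.095, adjusted p = 0.00122). Of 5 genes of BH4 synthesis and recycling it was the only one called.

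Several of these calls changed when 1 kind of cell was left out. With all DANs of fewer than 2 Vmat UMIs left out, an alternative chosen after seeing the data, 225 genes were called and the log2 fold change of Vmat was -0.01 (adjusted p = 0.967). CG15082 (1.253, adjusted p = 0.127), Dop1R1 (0.30, adjusted p = 0.366), ct (0.39, adjusted p = 0.490), beat-IV (0.28, adjusted p = 0.409) and dpr11 (0.47, adjusted p = 0.102) were then no longer called. Ms (-3.99999, adjusted p = 0.0596), Ets65A (-3.38, adjusted p = 0.0657) and toy (-2.75, adjusted p = 0.0764) lost their calls with log2 fold changes of similar size. With the Pvf3 Nos DANs left out, the log2 fold changes of scro (0.07, adjusted p = 0.922) and 5-HT2A (0.13, adjusted p = 0.797) were no longer called.

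The CEL-seq2 cells gave fewer calls. Over sums per time point, with 6 to 17 Nos DANs at each, 51 of 4437 genes were called (1.15%), 14 higher (0.316%) and 37 lower (0.834%). Pvf3 was higher at 6 of 6 time points (3.07 against 1.54 TP10K over all cells, log2 fold change 0.94 ± 0.19, adjusted p = 0.00681), and so was otp (0.749 against 0.105, 3.07 ± 0.57, adjusted p = 0.00382). Vmat was lower at 6 of 6 time points (79.9 against 141, -0.94 ± 0.16, adjusted p = 0.00104). Optix (-3.81 ± 0.65), Ms (-2.80 ± 0.28), CG12239 (-2.37 ± 0.19), CG2016 (-2.93 ± 0.40), Ets65A (-2.02 ± 0.31) and SoxN (-2.22 ± 0.45) were lower at 6 of 6 as well. None of these calls was lost when any 1 of the 23 libraries was left out.

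The markers proposed in 10X were not called in the CEL-seq2 comparison. SerT was at 0.888 TP10K in the Nos DANs and 0.362 in the other DANs (log2 fold change 0.94 ± 0.55, adjusted p = 0.804), higher at 4 of 6 time points, and dve at 1.21 and 0.761 (0.22 ± 0.40, adjusted p = 0.972). Dh31 was lower, at 1.16 against 3.76 (-1.35 ± 0.38, adjusted p = 0.116), higher at 1 of 6 time points, which is the opposite sign to 10X. It was called lower in 3 of 23 fits that left out 1 library and without the filter on low counts (-1.48, adjusted p = 4.05e-06). vvl was at 1.87 against 0.714 (1.35 ± 0.40, adjusted p = 0.142) and higher at 4 of 6, and it was called with at least 3 Nos UMIs required (1.64, adjusted p = 0.0179) and without the filter (1.17, adjusted p = 0.00373). CCHa2, at 0 UMIs in the 10X Nos DANs, was at 0.760 against 0.538 (adjusted p = 0.940).

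Of 3824 genes tested by both methods, 296 were called in 10X and 45 in CEL-seq2, and 34 were called in both with the same sign (11.5% of the 10X calls and 75.6% of the CEL-seq2 calls), while 0 had opposite signs. The 9 higher in both were Pvf3, otp, ct, Dh44, Nplp1, Dop1R1, dpr11, beat-IV and CG15082. Among the 25 lower in both were Vmat, Ms, Optix, Dll, SoxN, Ets65A, Lim1, CG2016, CG12239, the octopamine enzyme gene Tbh, and the peptide processing genes amon, Pal2 and CrebA. The CEL-seq2 calls of ct and beat-IV were each lost in 13 of 23 fits that left out 1 library, those of Dop1R1 in 7, Dh44 in 6, Nplp1 in 5, dpr11 in 3 and CG15082 in 2. By DESeq2 the 10X calls of otp (adjusted p = 0.216) and ct (0.396) and the CEL-seq2 calls of Dh44 (0.473) and CG15082 (0.350) were lost. With DANs of fewer than 2 Vmat UMIs left out, the 10X calls of ct, Dop1R1, dpr11, beat-IV, CG15082, Vmat, Ms and Ets65A were lost. The sign of Dh44 turned there (-1.26). CEL-seq2 held only 1 such cell among its Nos DANs, so the shared calls need not come from the same kinds of cell. The ZT18 libraries stood apart from the rest in some genes: ChAT was at 24.5 TP10K in the other DANs of ZT18 and at 1.42 to 2.53 at the other time points. Without them Dh44 (0.88, adjusted p = 0.224) and SoxN (adjusted p = 0.0501) were not called.

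Between ZT02 and ZT14 there was 1 library each, so ratios are given with Poisson intervals and without a test. In the Nos DANs the ZT14 to ZT02 ratio of Nos was 1.08 (0.996 to 1.18). ple (0.773), DAT (0.687) and Vmat (0.773) were below 1, and in the other DANs they were at 1.01, 0.833 and 0.990. The Nos DANs of ZT14 held more low Vmat cells, which are low in all 3 genes, and the makeup and a change of level cannot be told apart over all Nos DANs. Within kinds Vmat was at 1.08 (1.04 to 1.13) in the dve SerT cells, 1.11 in the dve cells without SerT, 1.11 in the vvl cells and 0.894 in the Pvf3 cells. Ddc was at 0.899 over all Nos DANs, and between 0.833 in the Pvf3 cells and 1.06 in the vvl cells. AstC was at 0.509 over all Nos DANs, and at 0.859 and 1.38 within the dve kinds. Some kinds were mixed themselves, so in the ratios within kinds, here and below, makeup and a change of level cannot be told apart either. At least 5 VGlut UMIs were found in 8 of 34 dve cells without SerT at ZT02 and in 0 of 10 at ZT14. Of the low Vmat cells, 5 of 20 and 16 of 36 held that many.

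Hr38 and sr are nuclear factors whose mRNA rises with neuronal activity in insects. Over all Nos DANs Hr38 was at a ratio of 0.746 (0.680 to 0.819) and sr at 0.833 (0.708 to 0.980), against 0.599 and 0.494 in the other DANs. Within the kinds Hr38 was below 1 in the dve SerT cells (0.511), the dve cells without SerT (0.419), the vvl cells (0.462) and the Pvf3 cells (0.5676), and 0.906 (0.765 to 1.08) in the low Vmat cells. sr was at 0.290 (0.152 to 0.519) in the dve SerT cells and had 78 UMIs at ZT02 and 0 at ZT14 in the dve cells without SerT. It was at 1.06 (0.693 to 1.64) in the vvl cells, 0.654 (0.508 to 0.845) in the low Vmat cells and 0.823 (0.356 to 2.01) in the Pvf3 cells. per, a clock gene, was at 0.412 over all Nos DANs and between 0.382 and 0.544 in each of the 5 kinds, and Pdp1, another, was at 1.58 and between 1.28 and 2.17. Levels of per were lower and those of Pdp1 higher at ZT14 in every kind. The other DANs shared both directions, with ratios of 0.708 for per and 1.31 for Pdp1.

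**Figure D5:**
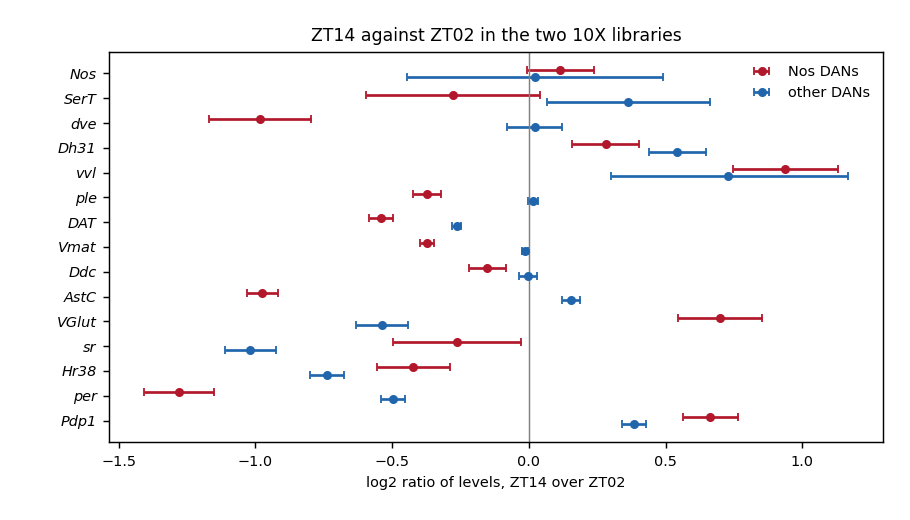
Ratio of the ZT14 to the ZT02 level of 15 genes on a log2 axis, in Nos DANs (red) and other DANs (blue), with 95% Poisson intervals for counting error only; each time point is 1 library. dve and AstC lie near -1 in the Nos DANs (ratios of 0.506 and 0.509) and near 0 in the other DANs (1.01 and 1.11), and vvl lies near 1 (1.92).

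Markers of other cell types were summed as well. The cholinergic markers were at 2.38 TP10K at ZT02 and 4.34 at ZT14 against 0.233 and 0.351 in the other DANs, VGlut at 4.04 and 6.55 against 3.02 and 2.08, and the serotonergic markers at 1.63 and 1.19 against 0.594 and 0.651. The serotonergic sum held 2 genes that went opposite ways. Over both libraries SerT, a proposed marker, was at 1.17 TP10K against 0.255, and Trh was lower at 0.215 against 0.366. A UMI of tim, Clk, vri or cry was found in 41 Nos DANs (11.99%) and in 205 other DANs (12.1%), and in 23 of 58 in CEL-seq2. The summed level of 5 clock neuron markers was 1.23 TP10K at ZT02 and 15.9 at ZT14, of which Pdf in 1 cell with 2322 UMIs and 19 tim UMIs was nearly all. The next highest Nos DAN held 10 Pdf UMIs. Of 6 glial markers 4 had a UMI, summed to 0.418 and 0.490 TP10K with repo and moody at 0, and of 6 photoreceptor markers 1 had a UMI. With all cells that held a clock neuron UMI left out, 308 genes were called in 10X, of which 302 were among the 403.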

How the data were processed

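The authors deposited a table of raw, whole-number UMI counts with 1 column per cell. Per the submitters' processing notes and the study's methods, reads were mapped to dm6 and counted by Cell Ranger 6.0.2 (10X, demultiplexed with bcl2fastq 2.20) or zUMIs (CEL-seq2), cells outside limits on genes, UMIs and entropy were removed, and doublets called by Scrublet in 10X were excluded before deposit. Doublets were not called again and no further filter on cells was applied. The 91 spike-in rows (1.43% of CEL-seq2 UMIs) and 2325 columns of per-cell values not mapped to a sample here were left out. The depth of the libraries was 548486 to 21264133 UMIs.

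Cells were chosen by UMI minimums as given in the text, and UMIs were summed per library (10X, at least 5 cells per sum) or per time point (CEL-seq2, at least 3 cells) and class, since cells are not replicates. Sums were compared with edgeR 4.0.16 (TMM, filterByExpr, glmQLFit and glmQLFTest) in R 4.3.3, with the library or time point as a block because the classes of a sum come from the same libraries. Adjusted p-values are Benjamini-Hochberg values over all genes tested, and standard errors were taken from the F statistic (effect size over the root of F). Genes at 0 UMIs in a class were given a bound from 3 counts over that class. Alternatives were DESeq2 1.42.0, no block, no filter on low counts, other UMI minimums, thinning to 3000 UMIs, cells left out and libraries left out. Coordinates are those of a dm6 annotation matched by symbol. The tests were tested on simulated data.

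The genes named were the markers, genes of lists written by hand (28 lists, 396 of 403 genes in the table) and, from the 10X comparisons, the 10 called genes per direction that changed most and were at 1 TP10K or more in the higher class in both libraries. Genes named for single kinds of cell outside this rule, such as RunxA, were chosen after their values were seen. The members and lists were chosen with earlier results of these data known. Other steps used Python 3.11.15 with scipy 1.17.1, numpy 2.4.6 and pandas 2.3.3, and figures matplotlib 3.10.9.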

Additional observations from a re-analysis of the deposited data

How the results depend on the processing

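In the comparison of Nos DANs with other DANs in 10X, 403 genes were called. DESeq2 called 186 (118 higher, 68 lower), a fit without the filter on low counts 787 (377 and 410), and, chosen after seeing the data, a fit without cells of fewer than 2 Vmat UMIs 225. The fit with no replicate block called 90 in 10X (51 higher and 39 lower, all of them among the 403), 9 in place of 51 in CEL-seq2, and 390 in place of 739 between dve and vvl cells. In CEL-seq2 no filter gave 128, and fits that left out 1 library gave 36 to 61. Between dve and vvl cells, DESeq2 called 205 and thinning 217 of 739, and between dve cells with and without SerT 109 and 136 of 361. A fold change of at least 2 in both methods left 14 of the 34 shared genes. The share of Nos DANs among 10X DANs was 24.5% with 1 Nos UMI, 12.6% with 3 and 8.78% after thinning, in place of 16.8%. Signs turned only in fits chosen after seeing the data: with dve and vvl Nos DANs alone for scro (-4.17), Fer2 (-3.22), Dh44 (-1.43), Dop1R1 (-0.38) and Vmat (0.25), without Pvf3 Nos DANs for Fer2 (-2.25), and without low Vmat cells for Dh44 (-1.26). These fits hold fewer kinds of cell. The cause of the other changes was not tested. Each 10X comparison rests on 2 libraries, so the spread of a single gene is poorly known.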

Other observations

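Matched to the means of the study's 43 clusters by Pearson correlation (at least 0.5, with a lead of 0.01 over the next cluster, and 7 genes that chose or mark the cells held out), the 10X Nos DANs lay in several clusters. All 43 dve SerT cells matched cluster 19, where 53 of 111 matched DANs were Nos DANs, and all 48 vvl cells matched cluster 26, where 49 of 51 were. Of the dve cells without SerT, 27 matched cluster 4, 13 cluster 28 and 4 cluster 19. Of the low Vmat cells 24 matched cluster 33 and 14 cluster 39, and of the Pvf3 cells 48 matched cluster 9 and 47 none. In all, 65 of the 10X Nos DANs matched no cluster. The study built its clusters from the cells of both methods, so these matches are no independent check. In CEL-seq2, 3 of 7 dve SerT cells matched cluster 19, where 4 of 33 matched DANs were Nos DANs. Of 14 CEL-seq2 vvl cells, 9 matched cluster 26, where 10 of 20 were Nos DANs.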
